A study of Mus musculus with 15 samples.

Results

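The cortex of wild-type (WT) mice was compared between the light and the dark part of the day. RNA sequencing values were at hand for 3 WT mice at Zt+6, which is 6 h after lights on, and 2 WT mice at Zt+16, in the dark, so 5 of the 15 samples of the series belong to this comparison. They were picked by their labels for genotype and time. The deposited table gives each group 1 expression value per gene, in FPKM (fragments mapped to a gene, scaled to its transcript length and to the size of the library), for 23235 genes, and 10297 of these reached a mean of 1 FPKM over the 4 RNA groups and were compared. All mice were adult males on a C57BL/6J background, littermates from crosses of *Snord116del* males with WT females, fed standard chow under a daily light cycle. The *Snord116del* littermates lack the *Snord116* snoRNA cluster and its 116HG host transcript on the paternal chromosome. There were 2 at Zt+6 and 2 at Zt+16, used here for a second look at the same genes. Their values also enter the filter and the later trend on mean level, which both take the mean over all RNA groups. A mean over the WT groups alone kept 9039 genes, 589 of them higher and 933 lower by the rule given below.

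Since the values of single mice were not given, the spread between mice cannot be seen and no difference below carries an error or a test. Genes are described by a fold rule in its place. A gene was called higher or lower when FPKM + 1 differed by 1.5-fold or more between the WT groups and 1 FPKM or more was reached in the higher of them. All log2 changes are Zt+16 minus Zt+6 on the log2(FPKM + 1) scale, which understates the change of genes near 1 FPKM, while fold values are plain ratios of FPKM.

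Daily rhythms in most cells come from a transcription loop. CLOCK (or its relative NPAS2) and BMAL1, the product of *Arntl*, bind E-box DNA and switch on the period and cryptochrome genes, whose proteins then shut their own activators off. Side loops run through the REV-ERB repressors (*Nr1d1*, *Nr1d2*), the ROR activators, the DEC repressors (*Bhlhe40*, *Bhlhe41*) and the PAR-domain factors *Dbp*, *Tef* and *Hlf*, which act at D-boxes. The master clock of mammals sits in the suprachiasmatic nucleus of the hypothalamus, and the cortex runs its own copy of the loop, while cortical neurons also follow waking and sleep through their activity-dependent genes.

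The canonical E-box, CACGTG, is its own reverse complement, so 1 search covers both strands. It was looked for between 250 bases before and 50 bases after the annotated start sites (RefSeq, GRCm38.p6) of the 21 tested clock genes found in that table, and 4 held it: *Per1*, *Cry1*, *Gm129* and *Tef*. Of all 8215 tested genes with a promoter there, 12.3% held it. The promoters of *Per1*, of *Gm129* and of *Cry1* are printed because the first has the largest fall in FPKM among the clock genes, the second has the most copies of the motif and the third is a repressor with more FPKM in the dark, though short of the rule. Each is written 5′ to 3′ on the gene's strand, with CACGTG in capitals.
*Per1*: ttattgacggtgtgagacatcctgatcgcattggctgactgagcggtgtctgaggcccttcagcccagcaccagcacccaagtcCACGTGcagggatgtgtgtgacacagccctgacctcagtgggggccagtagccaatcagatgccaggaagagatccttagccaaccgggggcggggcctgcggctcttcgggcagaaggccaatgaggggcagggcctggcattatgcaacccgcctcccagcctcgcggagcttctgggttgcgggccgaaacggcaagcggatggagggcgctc
*Gm129*: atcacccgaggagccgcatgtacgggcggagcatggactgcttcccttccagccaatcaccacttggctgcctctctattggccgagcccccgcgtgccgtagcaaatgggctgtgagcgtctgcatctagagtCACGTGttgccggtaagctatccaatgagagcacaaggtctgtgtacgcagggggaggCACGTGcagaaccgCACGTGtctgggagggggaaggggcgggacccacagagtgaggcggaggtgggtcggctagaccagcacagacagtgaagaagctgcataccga
*Cry1*: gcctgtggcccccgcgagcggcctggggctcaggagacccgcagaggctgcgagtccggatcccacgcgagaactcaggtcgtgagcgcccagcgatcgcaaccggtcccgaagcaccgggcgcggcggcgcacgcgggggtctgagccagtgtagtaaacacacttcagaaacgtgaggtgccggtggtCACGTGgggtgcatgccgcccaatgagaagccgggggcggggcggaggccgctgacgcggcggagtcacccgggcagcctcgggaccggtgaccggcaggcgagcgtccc
The *Per1* promoter is chr11:69098699-69098998 on the plus strand, with the motif starting 166 bases before the start site. That of *Gm129* (RefSeq symbol *Ciart*), chr3:95882179-95882478 on the minus strand, has 3 copies, which begin 116, 58 and 44 bases before the start. The *Cry1* promoter, chr10:85185005-85185304 on the minus strand, has 1 copy 60 bases before the start. *Tef* has 1 copy in each of its 2 listed promoters. A match of letters is a description and not a site of binding.

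The sum of FPKM over all genes was 159300 at Zt+6 and 216422 at Zt+16, 1.36 times as much, and the 100 top genes held 35.7% and 44.1% of it.  Short and abundant transcripts had higher values in the dark and long ones lower values. Over 5 equal bins of genes ordered by their longest annotated transcript, from 54 to 1686 bases up to 4940 to 28204 bases, the median log2 change in WT went 0.26, 0.08, -0.01, -0.12 and -0.35. Across genes the change and the length had a Spearman's rho of -0.49 in WT and -0.62 in *Snord116del* (10165 genes, which are not independent replicates). The group values are therefore given as deposited and, where it matters, with a smooth trend taken out of the log2 changes ("trend removed"). The trend was on transcript length and then on the mean level over all RNA groups. The ribosomal RNA precursor *Rn45s*, picked here after its values were seen, is listed at 0 FPKM in both Zt+6 groups and at 248 in WT and 305 in *Snord116del* at Zt+16. The label of 1 of the 3 WT Zt+6 mice and of both *Snord116del* Zt+6 mice names an earlier version of the expression table, while no Zt+16 label does, so the time of day and any difference in handling behind that version cannot be told apart.

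**Figure D1:**
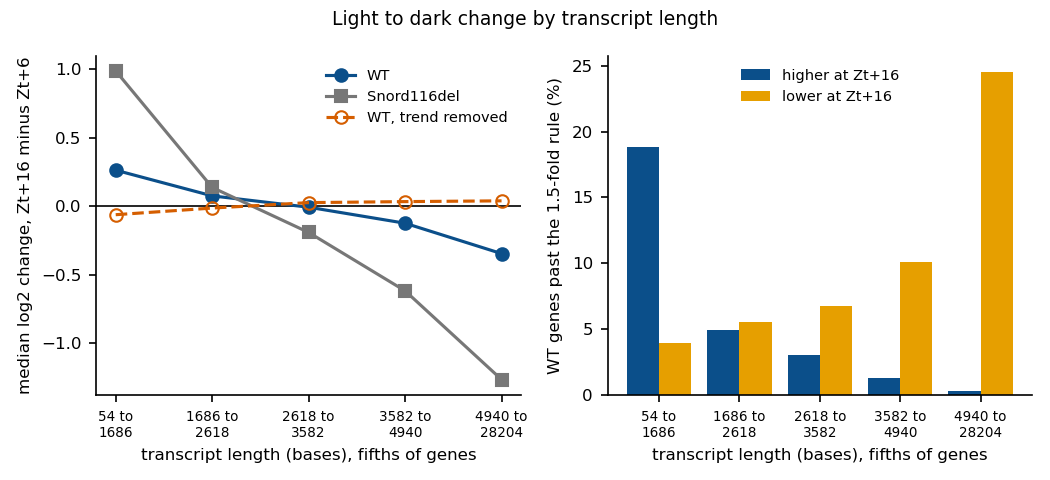
Left, median log2 change from Zt+6 to Zt+16 (y axis) in 5 bins of genes by transcript length in bases (x axis), for WT, *Snord116del* and WT with the trend removed; right, the percent of WT genes of each bin that were higher or lower by the 1.5-fold rule. In WT the medians run from 0.26 for the shortest to -0.35 for the longest transcripts, and 383 genes of the shortest bin but 6 of the longest were higher in the dark.

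The WT cortex held more genes with lower than with higher values in the dark. Of the 10297 genes, 1645 (16.0%) were past the rule, 588 (5.71%) higher and 1057 (10.3%) lower at Zt+16. The median gene sat at -0.04, with quartiles of -0.32 and 0.23. The split leans on the scale. Setting both groups to the same median gave 1031 higher and 789 lower, and setting them to the same total, which moves the median gene to -0.35, gave 47 higher and 2712 lower. With the trend removed, 916 of 10165 genes (9.01%) were past the rule, 195 (1.92%) higher and 721 (7.09%) lower. These shares are the background against which the counts of each gene group are read.

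Clock genes that were past the rule as deposited were all lower in the dark. Of the 31 genes in the clock lists, 26 were tested, 7 were lower (26.9%, beside 10.3% of all tested genes) and 0 were higher. With the trend removed 5 stayed lower, namely *Per1*, *Nr1d1*, *Bhlhe40*, *Gm129* and *Dbp*, and *Btrc* was higher. The 26 genes had a median log2 change of -0.33, or -0.09 with the trend removed, beside -0.04 for all genes. Under quantile scaling the repressors had 3 lower and 1 higher. The activators, the outputs and the turnover genes had 0 past the rule on that scale.

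Among the activators, *Clock* had 2.64 FPKM at Zt+6 and 1.62 at Zt+16, a log2 change of -0.47 that came to 0.00 with the trend removed. *Arntl*, which encodes its partner BMAL1, had 1.44 and 0.70 FPKM (-0.52, or -0.43 with the trend removed). *Npas2*, which can stand in for *Clock* in the forebrain, was level at 3.79 and 3.83 FPKM. The nuclear receptors *Rora* and *Rorb*, which activate *Arntl*, went from 2.60 to 1.17 and from 1.82 to 0.62 FPKM, both past the rule as deposited and short of it with the trend removed (-0.14 and -0.27). *Rorb* is also a marker of cortical layer neurons. No activator thus stayed past the rule on both scales.

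The repressors split by gene. *Per1* (mm9 chr11:68908719-68923462) had 9.89 FPKM in the light and 4.03 in the dark, 2.46-fold lower, with a log2 change of -1.12 and -0.99 with the trend removed. Its paralogs moved less: *Per2* had 3.34 and 3.25 FPKM and *Per3* had 1.56 and 1.33. The period genes therefore had unlike values for the same pair of times. *Cry1* was the repressor with a higher value in the dark, 3.01 against 1.87 FPKM, with a log2 change of 0.48 (0.55 with the trend removed), just short of the rule. *Cry2* had 10.1 and 9.03 FPKM. *Nr1d1*, the REV-ERB-alpha gene (mm9 chr11:98629246-98636647), had 9.79 and 5.18 FPKM, 1.89-fold lower, and its log2 change of -0.81 was -0.92 with the trend removed. *Nr1d2*, its relative, had 2.94 and 2.03 FPKM (-0.38). *Bhlhe40*, the DEC1 gene, which answers to neuronal activity as well as to the clock, had 8.45 and 4.53 FPKM (-0.77, or -0.82). *Gm129*, whose protein binds BMAL1 and represses it, had 1.75 and 0.63 FPKM (-0.76, or -0.78).

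Of the outputs, *Dbp* was the one past the rule, with 1.86 FPKM in the light and 0.80 in the dark, 2.33-fold lower (-0.67, or -0.73 with the trend removed). Its PAR-domain relatives went separate ways: *Hlf* had 4.41 and 2.99 FPKM (-0.44) and *Tef* had 20.5 and 26.0 FPKM (0.33). *Nfil3*, which opposes them at D-boxes, had 2.44 and 1.85 FPKM. The deubiquitinase gene *Usp2* had 9.99 and 6.92 FPKM, and *Nampt*, of NAD synthesis, 1.09 and 0.96. The genes for clock protein turnover, casein kinases, GSK3 beta and F-box proteins, had 0 of 6 past the rule. The only one past it with the trend removed was *Btrc*, a ubiquitin ligase subunit that takes period proteins to degradation, with 7.62 and 10.3 FPKM (0.39, or 0.63 with the trend removed).

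**Figure D2:**
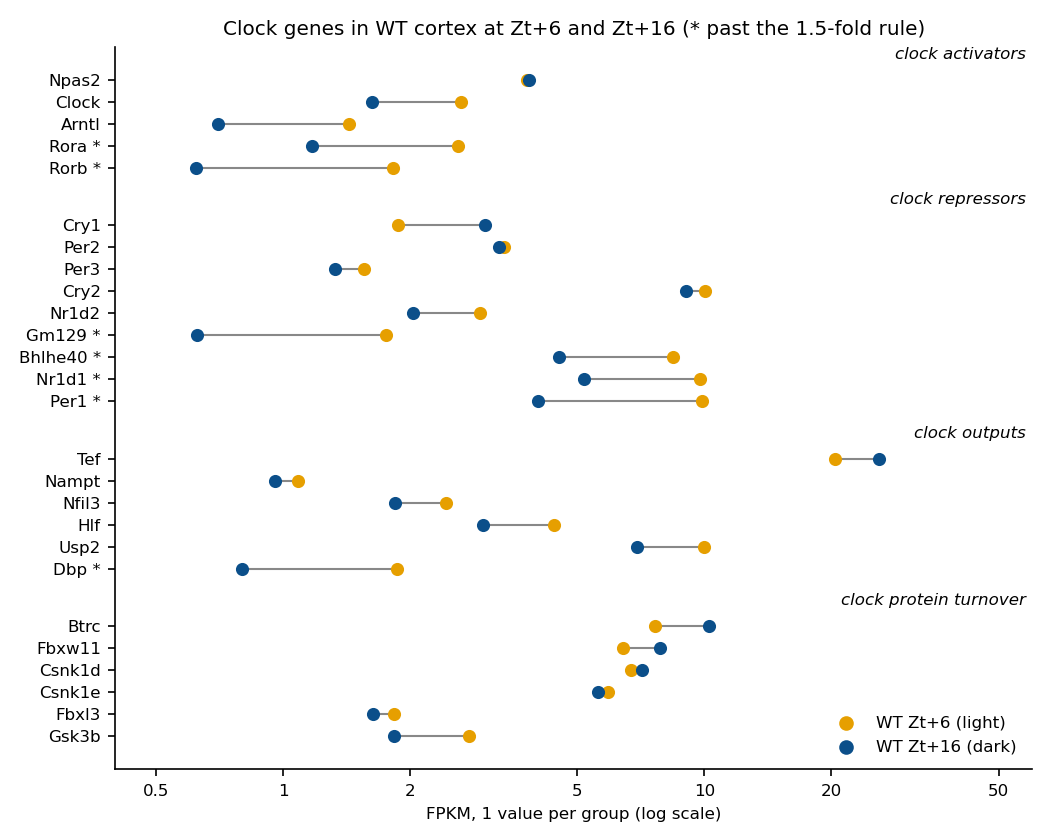
FPKM of the 26 tested clock genes (x axis, log scale) in WT cortex at Zt+6 and Zt+16, 1 value per group, ordered within each role by their log2 change; an asterisk marks genes past the 1.5-fold rule. All 7 marked genes lie lower at Zt+16, with *Per1* at 9.89 and 4.03 FPKM, while *Cry1* and *Tef* lie higher at Zt+16.

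Of other motifs of clock and activity pathways, the D-box and the cAMP response element were each found in 1 of the 21 clock genes (4.76%). The D-box TTATGTAA (searched on both strands) was in 0.706% of all promoters and, among the clock genes, in *Per3* alone, which held it at 2 places. The full cAMP response element TGACGTCA, which is its own reverse complement, was in 3.76% of all promoters and in *Hlf* among the clock genes. CACGTG was in 11.8% of the promoters of genes higher in the dark and 9.78% of those lower, beside 12.3% of all. With the trend removed it was in 8 of 149 higher (5.37%) and 51 of 546 lower (9.34%). No match here speaks for or against the action of a factor.

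Among activity-dependent genes, those past the rule were mostly lower in the dark, when mice are mostly awake. Immediate early genes are switched on within minutes of synaptic input and need no new protein to start. Of the 36 tested, 10 (27.8%) were lower and 2 higher, the median log2 change was -0.35, and with the trend removed 12 were lower and 0 higher with a median of -0.37. *Arc* (mm9 chr15:74499513-74503000), which acts at dendrites to remove AMPA receptors, had 49.5 FPKM in the light and 14.4 in the dark, 3.45-fold lower (-1.72, or -1.91 with the trend removed). The orphan nuclear receptor gene *Nr4a2* had 7.31 and 1.10 FPKM, 6.62-fold lower (-1.98), and its relatives *Nr4a1* and *Nr4a3* had 19.4 and 12.1 and 11.8 and 5.98 FPKM. The Nr4a genes were thus all past the rule in 1 direction.

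The AP-1 subunits *Fos* (13.1 and 8.25 FPKM), *Fosb* (4.06 and 1.56), *Fosl2* (5.36 and 2.97) and *Junb* (3.42 and 1.74) were lower in the dark, *Fosl2* only as deposited (-0.40 with the trend removed). *Jund*, the AP-1 subunit that is expressed steadily rather than in bursts, was higher, with 17.5 and 28.5 FPKM (0.67, or 0.53 with the trend removed, under the rule). The neuronal factor *Npas4* had 3.62 and 1.07 FPKM (-1.16). *Homer1*, whose short form loosens receptor scaffolds at the synapse, had 11.3 and 3.49 FPKM (-1.46), but the table does not part its short and long forms. *Egr1*, a zinc finger factor, had 52.6 and 36.3 FPKM, a log2 change of -0.52 that passed only with the trend removed (-0.70). *Bdnf* had 2.39 and 1.79 FPKM and *Egr3* was level at 14.4 and 14.3. The secreted pentraxin gene *Nptx2*, which clusters AMPA receptors, was the other gene higher in the dark, with 19.2 and 33.1 FPKM (0.75, or 0.55 with the trend removed).

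**Figure D3:**
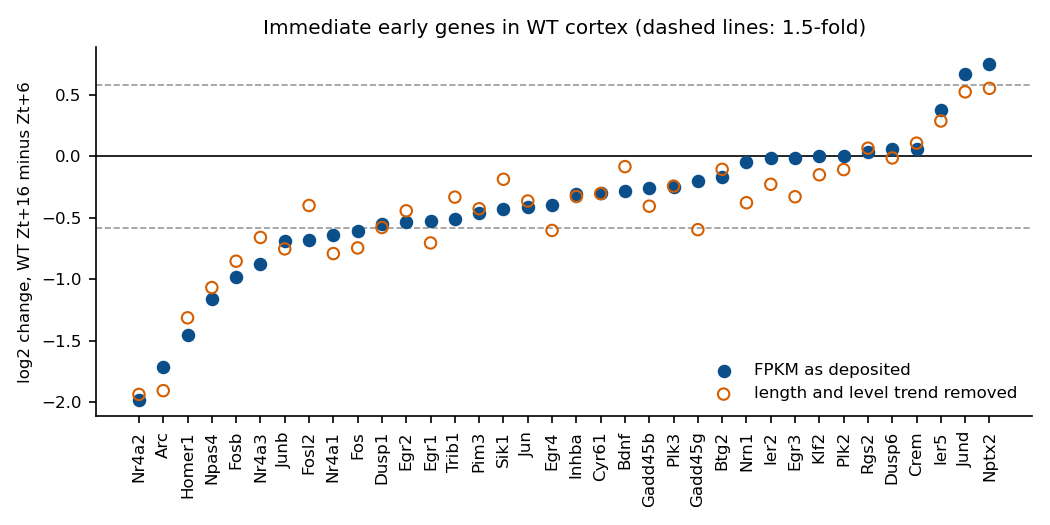
Log2 change from Zt+6 to Zt+16 in WT cortex (y axis) of the 36 tested immediate early genes (x axis), as deposited and with the trend removed; dashed lines mark 1.5-fold. *Nr4a2* at -1.98 and *Arc* at -1.72 lie lowest, and *Jund* at 0.67 and *Nptx2* at 0.75 are the points above the upper line, both under it once the trend is removed.

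Genes that answer to glucocorticoids, the adrenal hormones that peak in mice around dusk, were mostly under the rule. Of 14 tested, 9 were under it, 4 (28.6%, beside 10.3% of all tested genes) were lower and 1 was higher. *Zbtb16*, a zinc finger repressor, had 2.41 FPKM in the light and 0.37 in the dark (-1.31). *Klf9*, a Krueppel-like factor, had 3.02 and 0.78 FPKM (-1.18). *Tsc22d3*, the GILZ gene, had 4.56 and 1.73 FPKM (-1.03), and these 3 stayed past the rule with the trend removed. The receptor gene *Nr3c1*, with 2.02 and 0.92 FPKM (-0.66), did not (-0.28). *Fkbp5* and *Sgk1*, both much used readouts of the receptor, had 1.85 and 1.69 FPKM and 11.3 and 7.47 FPKM, under the rule as deposited, though *Sgk1* passed it narrowly with the trend removed (-0.59), the fourth gene lower on that scale. The metallothionein gene *Mt1*, a short transcript, had 630 and 1124 FPKM, and its log2 change of 0.83 came to 0.05 with the trend removed.

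Of the chaperone lists, that of the endoplasmic reticulum had 26.7% of its genes lower and that of heat shock 13.6%. The latter was near the 10.3% of all tested genes. With the trend removed 7.09% of all genes were lower. In the endoplasmic reticulum list 4 of 15 were lower and 0 higher (3 and 0 with the trend removed): *Pdia3*, a disulfide isomerase, had 6.71 and 1.87 FPKM (-1.42), *Manf*, a secreted stress protein, had 8.79 and 3.93 (-0.99), *Pdia4* had 5.38 and 2.60, and *Sel1l*, of the degradation complex, had 6.30 and 3.07. *Hspa5*, the master chaperone of that compartment, was level at 22.8 and 25.5 FPKM. Of 22 heat shock chaperone genes 3 were lower (*Hsph1*, *Hspa4l* and *Dnajb5*), of which *Hsph1* alone stayed so with the trend removed, and 1, *Hspe1*, was higher with 83.6 and 139 FPKM (0.73, or 0.17 with the trend removed). The cold-inducible genes *Cirbp* (7.64 and 11.1 FPKM) and *Rbm3* (10.4 and 8.23), which follow body temperature, were both under the rule. The medians of the chaperone lists, -0.08 and -0.08, turn positive when the groups are set to the same median (0.00 and 0.05).

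Sterol and lipid synthesis had 4 of 24 genes lower (16.7%, beside 10.3% of all) and 1 higher, and 1 lower and 1 higher with the trend removed. *Idi1*, an isomerase of the cholesterol route, had 2.17 and 0.99 FPKM (-0.67) and was the one to stay lower with the trend removed (-0.61). *Fasn*, with 13.2 and 16.7 FPKM (0.31), was the one higher on that scale (0.68). *Srebf2*, the sterol regulator itself, had 2.50 and 1.09 FPKM, and *Scd1*, a fatty acid desaturase, had 7.18 and 4.28. *Pmvk*, a kinase of the same route with a short transcript, had 30.4 and 48.8 FPKM (0.66, or 0.22). Of 14 genes of the mTOR complexes and their regulators, 0 were past the rule in either direction as deposited. With the trend removed 1 was lower, the ribosomal protein gene *Rps6*, with 19.4 and 16.3 FPKM (-0.24, or -0.66). The paper compared genotypes, by *Mtor* RNA and by staining for mTOR and for phosphorylated S6 protein. RNA values do not show the protein readings, and the comparison here is between times. *Mtor* had 5.32 and 6.16 FPKM, a log2 change of 0.18, which came to 0.58 with the trend removed.

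Receptors and channels of the neuronal membrane that were past the rule were, but for 1 channel, lower in the dark as deposited. Of 32 glutamate and GABA receptor genes 14 (43.8%) were lower and 0 higher, with a median of -0.57, and 10 stayed lower with the trend removed. The NMDA receptor subunit *Grin2a* had 4.60 FPKM in the light and 0.99 in the dark (-1.49, or -1.34), and *Grin2b* had 4.46 and 1.49 (-1.13, or -0.77). The obligate subunit *Grin1* was level at 29.6 and 27.7 FPKM. AMPA receptor subunits ran from *Gria3*, with 17.6 and 14.9 FPKM, to *Gria2* (10.2 and 5.07, -0.89) and *Gria4* (2.55 and 0.90, -0.90). The GABA(A) subunits *Gabra2* (2.32 and 0.71 FPKM), *Gabra3* (3.26 and 1.59), *Gabrb1* (5.00 and 2.56) and *Gabrb2* (6.18 and 3.47) were among those lower. The extrasynaptic subunit *Gabrd* was under the rule with 13.5 and 12.1 FPKM.

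Potassium channels had 13 of 45 genes lower and 1 higher, and 8 lower and 2 higher with the trend removed. The inward rectifiers *Kcnj3*, which opens to G proteins (6.29 and 1.65 FPKM, -1.46), and *Kcnj10*, which clears potassium through glia (6.54 and 2.03 FPKM, -1.32), lay lowest. *Kcnq3*, a subunit of the M-current channels that hold neurons back from firing, had 2.84 and 0.83 FPKM. *Kcna5* was the channel gene that was higher, with 1.79 and 4.08 FPKM (0.87). Of 11 sodium and calcium channel genes, 5 were lower, among them *Scn1a* with 2.21 and 0.25 FPKM (-1.36) and *Cacna1e* with 6.84 and 2.13 (-1.32), and 2 stayed so with the trend removed, when the list's median went from -0.50 to 0.06.

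At the presynaptic terminal 9 of 31 genes were lower and 1 higher, and 8 and 1 with the trend removed. *Sv2a*, a glycoprotein of the vesicle membrane, had 10.5 FPKM in the light and 1.42 in the dark, 7.43-fold lower (-2.25). *Napb*, the brain form of the SNAP protein that resets fusion machinery, had 9.54 and 2.10 FPKM (-1.77). The calcium sensor *Syt1* had 42.8 and 19.4 FPKM, and the active zone genes *Rims1*, *Rims2* and *Pclo* had 9.26 and 3.46, 4.29 and 1.72, and 7.89 and 2.42 FPKM. Most of the fusion machinery was under the rule, with *Snap25* at 481 and 417, *Stx1a* at 51.9 and 52.3 and *Vamp2* at 81.8 and 70.5 FPKM. The vesicular transporters differed in sign. *Slc17a7*, which loads glutamate, had 105 and 60.3 FPKM (-0.79, or -1.04), and *Slc32a1*, which loads GABA, had 60.4 and 127 FPKM (1.06, or 0.79 with the trend removed). The enzymes that make GABA, *Gad1* (10.7 and 10.1 FPKM) and *Gad2* (5.36 and 6.10), were under the rule.

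Neuropeptide precursors past the rule were higher in the dark. Of 18 tested, 6 (33.3%, beside 5.71% of all) were higher in the dark and 0 lower, with a median of 0.31, but these are short and abundant transcripts, and with the trend removed 1, *Cort*, stayed higher and the median was 0.06. *Cort*, the cortistatin gene of a subset of interneurons, had 21.7 and 69.6 FPKM (1.64, or 1.07). Its relative *Sst*, somatostatin, had 291 and 571 FPKM (0.97, or 0.23). *Cck* had 925 and 1702 FPKM, *Penk* 145 and 264, *Tac1* 36.6 and 62.8, and *Vgf*, which is induced by neurotrophins, 32.4 and 54.1. *Npy* and *Vip* were under the rule at 200 and 229 and at 13.8 and 16.9 FPKM. The neurotrophin receptors *Ntrk2* and *Ntrk3* were lower, with 16.1 and 9.53 and 4.64 and 1.33 FPKM, and *Ntrk3* stayed so with the trend removed (-1.25).

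A part of the genes of the ribosome and of mitochondrial respiration was higher in the dark as deposited, and few of them were once the trend was removed. Of 76 cytosolic ribosomal protein genes, 26 (34.2%) were higher and 2 lower, with a median of 0.49. With the trend removed 3 were higher and 9 lower, with a median of -0.19. The same total for both groups left 4 higher and 10 lower, and quantile scaling turned the median to -0.07. Respiratory chain and ATP synthase genes had 27 of 82 higher (32.9%) and 2 lower, with a median of 0.51, and 0 and 5 with the trend removed, with a median of 0.00. Examples were *Ndufb4*, with 393 and 784 FPKM (1.00, or 0.32), and *Cox6a1*, with 1607 and 2969 FPKM (0.89, or 0.03), whose change was -0.21 under quantile scaling. Against that drift *Ndufa10*, a subunit of complex I, had 8.14 and 2.76 FPKM (-1.28, or -1.43). Mitochondrial ribosomal protein genes had 12 of 71 higher and 0 lower, 3 and 1 with the trend removed, and 0 and 0 with the same total. *Rpl34*, with 16.5 and 165 FPKM (3.25, or 2.68), stood far above the others, and since many ribosomal protein genes have near-identical copies in the genome its reads may be shared with them.

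**Figure D4:**
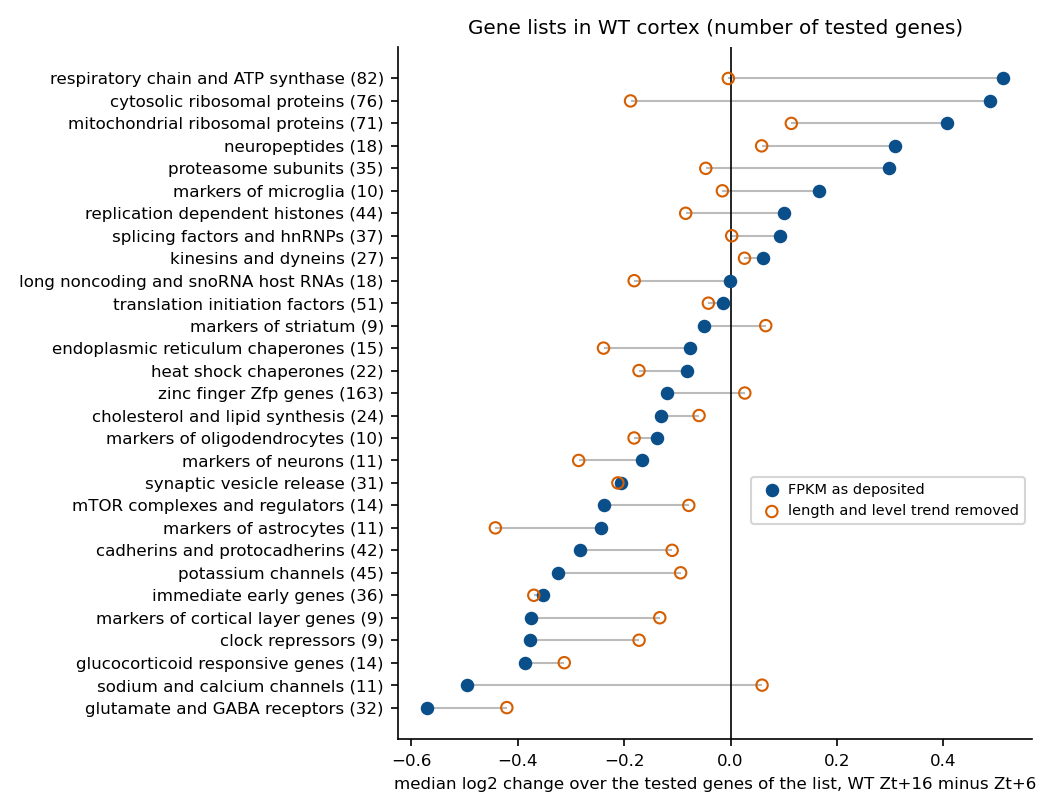
Median log2 change from Zt+6 to Zt+16 in WT cortex (x axis) over the tested genes of each list with at least 9 of them (number in brackets), as deposited and with the trend on transcript length and level removed; small RNA genes and the genes the paper names are left out. The medians of respiratory chain and ribosomal protein genes move from 0.51 and 0.49 to 0.00 and -0.19, while those of glutamate and GABA receptors (-0.57 and -0.42) and immediate early genes (-0.35 and -0.37) stay below zero. Medians with the trend removed cover the genes with an annotated length, which are 26 of 42 for cadherins and protocadherins.

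Markers of cell types served to check the tissue. The neuronal genes *Snap25* and *Camk2a* (234 and 146 FPKM), the cortical layer genes *Tbr1* (10.9 and 11.3) and *Cux1* (9.17 and 8.98), and glial genes such as *Mbp*, of myelin (314 and 603), were present in both WT groups. Hippocampal and thalamic markers were mostly under the filter, with 2 of 8 and 2 of 5 tested. Of 11 astrocyte markers 5 were lower and 1 higher (3 and 0 with the trend removed): the glutamate transporter *Slc1a3* had 16.2 and 6.73 FPKM, *Gfap* 8.11 and 3.13, and *Aldoc*, an enzyme of glycolysis, 275 and 465. In bulk tissue fewer cells of a type and less RNA per cell cannot be told apart. Microglial markers had 0 of 10 past the rule, and the summed FPKM of their list was 108 at Zt+6 and 129 at Zt+16. Neuronal markers had 3 of 11 lower and 0 higher (*Syt1*, *Slc17a7* and *Camk2a*), with a summed FPKM of 1059 in the light and 830.2 in the dark, and layer markers had 3 of 9 lower, among them *Cux2* and *Rorb*. Endothelial markers had 1 of 8 lower (*Cldn5*), meningeal markers 1 of 6 lower (*Igf2*), striatal markers 2 of 9 higher (*Penk* and *Tac1*) and 1 lower, and oligodendrocyte precursor markers 0 of 2 past the rule. Oligodendrocyte markers had 1 of 10 higher, *Mbp*, and 1 lower.

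Transcripts of blood cells and choroid plexus differed between the times. *Hbb-b2* and *Hba-a2*, haemoglobin genes of red cells, had 62.6 and 409 FPKM and 180 and 653 FPKM. *Beta-s*, a further beta globin gene, had 614 and 2865. *Hbb-b1* went the other way, with 36.8 and 18.9 FPKM, and the beta globin genes are near copies, so the split of reads among them is uncertain. *Hba-a1* was listed at 0 in all groups. The blood marker list summed to 280.0 FPKM in the light and 1082 in the dark in WT. The neutrophil genes *S100a8*, *S100a9* and *Camp* had 4.03 and 77.3, 1.48 and 21.5, and 0.35 and 5.09 FPKM, 19.2-fold, 14.5-fold and 14.5-fold higher in the dark. All 10 markers of the choroid plexus, the epithelium that makes cerebrospinal fluid, had lower FPKM in the dark, and their sum was 206 and 27.0 FPKM. *Ttr*, its transthyretin gene, made up most of that, with 200 and 24.9 FPKM (-2.95), and the other 9 had at most 1.03 FPKM at Zt+6. Markers of blood and choroid plexus differed between the times in *Snord116del* as well, with sums of 327 and 1160 and of 188 and 32.0 FPKM. Their part in the values of other genes was not tested. Leaving out the haemoglobin and neutrophil genes, a choice made after seeing the data, left 582 genes higher and 1056 lower.

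**Figure D5:**
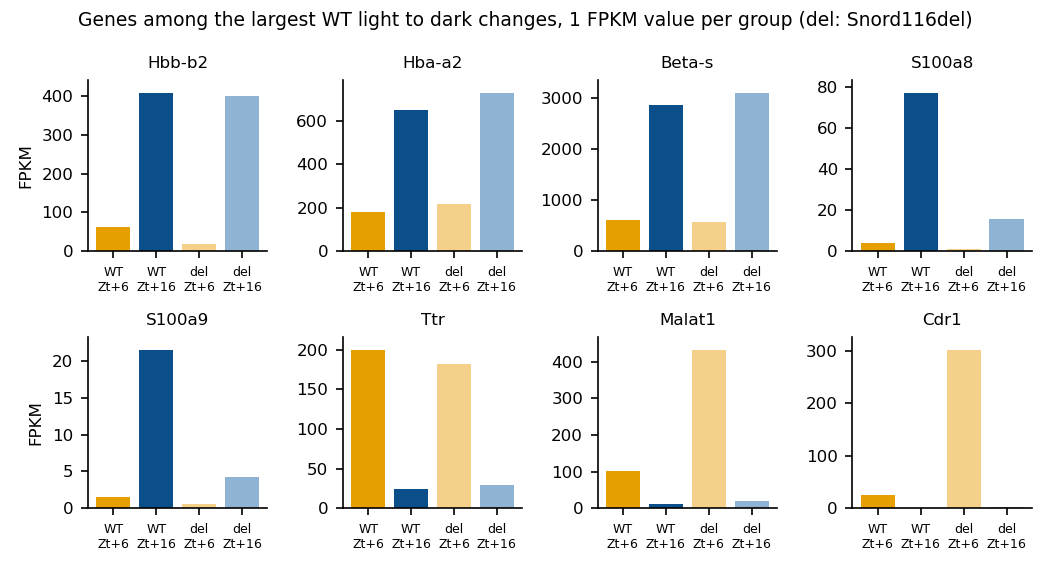
FPKM (y axis, separate scale for each gene) in the 4 RNA groups, 1 value per group, for globin, neutrophil, choroid plexus and noncoding genes among the largest WT changes. *Hbb-b2* goes from 62.6 to 409 FPKM in WT and *Ttr* from 200 to 24.9, and in both genotypes the Zt+16 bar lies on the same side of the Zt+6 bar for each gene shown.

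The largest falls held noncoding and nuclear RNAs. *Cdr1*, whose locus also gives the circular RNA Cdr1as from the other strand, had 25.3 FPKM in the light and 1.46 in the dark, 17.3-fold lower (-3.42). Whether the counting used strand is not given in the sources used here, so reads of that partner may be included. *Malat1*, a nuclear speckle RNA, had 102 and 10.6 FPKM (-3.15, or -3.08 with the trend removed), and the snoRNA host gene *Snhg11*, expressed in neurons, had 25.8 and 2.01 (-3.16). *Meg3* and *Rian*, noncoding RNAs of the imprinted Dlk1-Dio3 region, had 67.4 and 32.0 FPKM and 4.35 and 0.87. *Neat1*, the nuclear paraspeckle RNA, was under the rule with 4.13 and 3.45 FPKM (-0.21), and past it upwards with the trend removed (0.59). Of 18 noncoding and snoRNA host genes, 6 were lower and 1, *Snhg9*, was higher with 712 and 1108 FPKM (0.64), a change that was -0.18 with the trend removed and -0.06 under quantile scaling. Among coding genes *Nckap1*, of the WAVE actin complex, had 10.1 and 1.36 FPKM and *Lars2*, a mitochondrial leucyl-tRNA synthetase, had 19.3 and 4.09. The rises by the same ranking held, beside the genes of blood and *Rpl34*, the histone gene *Hist2h2aa2* (5.22 and 23.5 FPKM), which has a near-identical neighbour, *Cort*, and *Pttg1*, the securin gene (6.46 and 18.5 FPKM).

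In the imprinted Prader-Willi and Angelman domain 4 of 8 tested genes were lower in the WT dark and 0 higher. *Ipw*, a noncoding RNA of the paternal chromosome that lies past the *Snord116* cluster, had 21.6 and 3.17 FPKM, 6.81-fold lower (-2.44), and has no length in the annotation used, so no trend-free value. *Snurf* had 18.9 and 9.68 FPKM (-0.90), while *Snrpn*, from the same transcription unit, had 65.3 and 90.0 (0.46), so reads of these overlapping genes may be split. *Ube3a*, the maternally expressed ligase gene of the domain, had 1.55 and 0.58 FPKM (-0.69, or -0.39 with the trend removed). *Ndn* had 12.7 and 19.3 FPKM (0.57), under the rule. Of the 12 tested genes that the paper names, 3 were lower in the WT dark: *Per1*, *Crebbp*, a histone acetyltransferase gene (5.31 and 2.19 FPKM, -0.98), and *Mertk*, a receptor of phagocytic cells (1.52 and 0.27 FPKM, -0.99), which entered the comparison through its 10.5 FPKM in *Snord116del* at Zt+6. *Igf2r* (0.94 and 0.34 FPKM), *Ccdc12* (19.3 and 26.5), *Rbbp5* (2.99 and 2.64) and *Gapdh* (1386 and 1694) were under the rule.

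Most genes past the rule in WT were past it in the same direction in the *Snord116del* littermates. There 6593 of the 10297 genes (64.0%) were past the rule between the times, 2571 (25.0%) higher and 4022 (39.1%) lower. Of the 588 genes higher in WT, 565 were also higher in *Snord116del*, which is 96.1% of the WT list and 22.0% of the *Snord116del* list. Of the 1057 lower in WT, 1005 were also lower (95.1% and 25.0%), and 3 and 8 genes went in opposite directions. With the trend removed the shared genes were 174 of 195 higher and 662 of 721 lower, where 22.8% and 24.1% of all genes were called in *Snord116del*. Over all tested genes the WT and *Snord116del* changes had a Spearman's rho of 0.87, or 0.80 with the trend removed. The 2 comparisons share no mice, but the genes share lengths and levels and are not independent. With the trend removed, both were also fitted on the same mean level over all RNA groups, so they are not fully separate.

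The clock genes lower in WT were lower in *Snord116del* too, as were 95.1% of all genes lower in WT. Of the 26 tested clock genes, 17 were lower and 2 higher in *Snord116del*, beside 39.1% and 25.0% of all genes. There *Per1* had 15.8 FPKM in the light and 4.27 in the dark, *Nr1d1* had 30.8 and 7.26, *Bhlhe40* had 23.5 and 4.33, *Gm129* had 2.50 and 0.98, and *Dbp* had 6.00 and 0.90. At Zt+16 they had 4.33 against 4.53 FPKM in WT for *Bhlhe40* and 7.26 against 5.18 for *Nr1d1*. *Per2*, level in WT, had 8.85 and 3.25 FPKM in *Snord116del*. *Arc* had 130 and 14.8 FPKM there, and *Malat1* 433 and 21.2. *Ipw*, next to the deletion, had 3.40 and 1.82. Whether any of these steps differed between genotypes beyond the spread between mice cannot be seen from 1 value per group.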

How the data were processed

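RNA was measured in cortex of 3 WT mice at Zt+6 and 2 at Zt+16, with 2 *Snord116del* mice at each time beside them. Per the labels and the study's methods, libraries were made with a NuGEN kit and sequenced on an Illumina instrument, and the authors ran CASAVA 1.8.0, aligned with TopHat2 2.0.5 to mm9 and computed FPKM with Cuffdiff 2.0.2, pooling the mice of a group. The deposited FPKM are 1 value per gene and group. The study's methods state the reads sequenced for each sample. They were not used here, since the table holds no read counts per gene and these totals give neither counting intervals, a floor nor the spread between mice. Number of per-sample value columns left unused: 0. The deposited log2 fold change, q-value and call columns hold the authors' comparison of genotypes and were not used, nor were the peak lists.

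A test for values per mouse had been laid out, and the fold rule for group values was used since the table has only those. The filter kept the 10297 of 23235 genes whose mean over the 4 groups reached 1 FPKM. A pseudocount of 1 FPKM, a fold of 1.5 and at least 1 FPKM in the higher group made a call. Lengths are the longest GENCODE transcript of NCBIM37, the assembly of mm9, matched by symbol for 98.7% of tested genes. The trend was a lowess curve with a span of 0.3. Promoters are RefSeq sequences of GRCm38.p6, matched by symbol, and their coordinates are not those of mm9. Named genes are all tested genes of the clock lists and those the paper names, the 10 largest rises and 10 largest falls with at least 5 FPKM in the higher group, 2 members at each end of every other list and the 3 largest changes in FPKM each way. Further genes named are members of the 45 lists, and some that the rule would name are not reported here. The comparison, gene lists and rules were chosen with earlier results of these data known. The fold rule and the removal of the length trend alone were tested on simulated data, and the further step on mean level was not. Alternatives covered the pseudocount, the filter, the scale, the fold, small RNA genes and the length trend. Scripts used pandas 2.3.3 and numpy 2.4.6 under Python 3.11.15, with the lowess of statsmodels 0.14.6, rank correlations of scipy 1.17.1 and plots of matplotlib 3.10.9.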

Additional observations from a re-analysis of the deposited data

How the results depend on the processing

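No paired analysis was possible because the table gives 1 value per group, and for the same reason no mouse could be left out in turn. As reported, 588 genes were higher and 1057 lower (1645 in all, 35.7% higher), 252 of them in the lists, 1570 shared with *Snord116del* in direction, and the median change of the shortest of 5 bins of transcripts lay 0.61 above that of the longest. A pseudocount of 0.1 gave 2694 genes, 1856 lower, 31.1% higher and 2558 shared, and a pseudocount of 0.5 gave 32.3% higher. Filtering on the mean of the WT groups gave 38.7% higher, a mean of at least 5 FPKM gave 1001 genes, 472 lower, 52.8% higher and 949 shared, and no filter gave a length difference of 0.22. The same median gave 1031 higher (56.6%). The same total gave 2759 genes, 47 higher (1.70%), 2712 lower and 2676 shared. Quantile scaling gave 1066 genes, 332 higher (31.1%), 160 in the lists, 980 shared and a length difference of 0.36. A fold of 2 gave 287 genes, 48 higher (16.7%), 239 lower, 52 in the lists and 266 shared. Removing the trend on length and level gave 916 genes, 195 higher (21.3%), 143 in the lists, 836 shared and a length difference of -0.10, which the step itself sets near zero. Removing the length trend alone, chosen after seeing the data, gave 1028 genes, 352 higher and 676 lower, 159 in the lists, 953 shared and a length difference of 0.013. Of the named genes, *Cox6a1* turned to -0.21 under quantile scaling, and *Snhg9* to -0.062 there and to -0.18 with the trend removed. Of 141 named genes 106 were past the rule and 48 stayed past it under every alternative.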

Other observations

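Histone genes, which are packed in clusters and lack long tails in their messages, had 11 of 44 tested members higher in the dark and 1 lower, and 1 higher and 5 lower with the trend removed. *Hist1h2bc* had 94.2 and 168 FPKM and *Hist1h2ak* had 6.76 and 13.6, while *Hist1h2bg* had 3.15 and 1.48, and near-identical copies make the split of reads among them uncertain. Cadherins and protocadherins, the adhesion proteins of synapses, had 10 of 42 lower and 0 higher, such as *Pcdh9* (6.48 and 2.00 FPKM) and *Pcdh1* (6.90 and 2.27). Only 26 of the 42 have an annotated length, and of these 6 were lower and 0 higher with the trend removed. Among motor proteins the kinesin heavy chains *Kif5b* (5.21 and 2.23 FPKM) and *Kif5c* (13.1 and 4.65) were lower and the dynein light chain *Dynlrb1* (187 and 294) was higher, its change being 0.00 with the trend removed.

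Within the proteasome 5 of 35 subunit genes were higher and 2 lower. The core subunits *Psmb6* (29.8 and 59.0 FPKM) and *Psmb10* (13.7 and 25.0) were higher, and 0 of the 35 were with the trend removed (0.46 and 0.45 for these), while the lid subunits *Psmd3* (6.25 and 2.08) and *Psmd7* (5.57 and 2.69) were lower on both scales (-1.29 and -1.02 with the trend removed). Translation initiation factors had 6 of 51 higher and 7 lower (1 and 5 with the trend removed), with the scaffold *Eif4g1* at 3.58 and 0.90 FPKM and *Eif3g* at 67.0 and 120. Splicing factors had 1 of 37 past the rule, *Hnrnpul1*, with 10.7 and 6.12 FPKM. Zinc finger Zfp genes had 3 of 163 higher and 12 lower (2 and 6 with the trend removed).

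Small RNA genes, which this library type measures poorly, had 7 of 36 higher and 15 lower. *Mir744* was listed at 0 FPKM in all groups but WT at Zt+16, where it had 3541, and *Mir3062* and *Mir133a-2* were listed at 0 in all but WT at Zt+6, with 193 and 134. *Mir703* had 1470 and 985 FPKM, and *Mir760* was listed at 0 in all but WT at Zt+16, with 11.6. *Atp6v0c*, a proton pump subunit picked after its values were seen, had 60.5 FPKM in WT at Zt+6 and was listed at 0 at Zt+16, beside 315 and 0.486 in *Snord116del*.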
